A study of Mus musculus with 3 samples.

Results

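Foxp4 peaks that lie in long interspersed elements (LINEs) are described here. They are the peaks on chromosomes 1 to 19 whose detailed annotation in the deposited Foxp4 list names a repeat of the class LINE, and there were 1961 of them among 16856 Foxp4 peaks on these chromosomes. The peaks come from chromatin immunoprecipitation with sequencing (ChIP-seq) in beige adipocytes, thermogenic fat cells of white fat, which were differentiated in culture from the stromal-vascular fraction of the inguinal fat pad of C57BL/6 mice. The series holds 3 libraries, an input DNA, a Foxp4 ChIP and an H3K27ac ChIP, with 1 library each, and peak lists of both ChIPs were used. All libraries had the same treatment. The cells were grown for 3 days in medium with 20% serum. Confluent cells were induced for 48 h in a medium with 10% serum. This medium held T3 at 50 nM, troglitazone at 5 µM, dexamethasone at 1 µM, isobutylmethylxanthine at 0.5 mM and insulin at 5 µg/ml. The cells were then kept with T3, troglitazone and insulin. The cells are primary cultures of a mixed stromal fraction, and the sources do not say how many mice were used or their sex and age. The protocol names a Foxp4 antibody only, in the same words for every library. No RNA was measured, so the cell type was checked on H3K27ac only: of 8 defining fat cell genes 7 were the nearest gene of an H3K27ac peak (Adipoq was not), 6 of them with a peak within 2 kb of the TSS. Of 8 genes typical of beige cells 4 were, 1 of them (Ebf2) with a peak within 2 kb, while Ucp1, Cidea, Prdm16 and Dio2 had none. These marker genes were chosen after the data were seen.

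LINEs are retrotransposons that encode the reverse transcriptase and endonuclease with which they copy themselves through an RNA intermediate. In the mouse genome the L1 family is by far the most abundant, and its names follow age. L1Md elements are the youngest and include subfamilies that can still move, and Lx elements spread within the rodent lineage. L1M elements are remnants shared by mammals, as are the L2, CR1 and RTE-X families. Most copies are truncated and are held silent by DNA methylation and repressive histone marks, whereas H3K27ac, acetylation of histone H3 at lysine 27, marks active promoters and enhancers. Foxp4 is a forkhead transcription factor. Copies of the youngest subfamilies are nearly identical, so a short read from one of them can match many places.

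The members were spread over 111 repeat names, and L1 held 1856 of them (94.6%). The L2 family followed with 85 peaks (4.33%), CR1 had 15 and RTE-X 5. Of the L1 peaks, 641 carried an L1Md name, 32.7% of all members, and 508 (25.9%) an Lx name. The mammal-wide L1M names together held 289 peaks (14.7%), the L1_Mus and L1_Mm names 260 (13.3%), the L1_Mur and L1_Rod names 108 (5.51%), and L1VL names 32. HAL1 names, L1 derivatives that lack the reverse transcriptase frame, had 18.

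A small number of names held most members. L1Md_F2 had 227 peaks, L1Md_T 213 and L1Md_A 139, which made up 29.5% of all members between them. The next were L1_Mus3 with 97, Lx8 with 74, L1_Mus1 with 73, L1_Mus2 with 51, Lx9 with 50, L1Md_F3 and Lx7 with 47 each, Lx with 46 and L1_Mur2 with 41. These 12 names covered 56.3% of the members, and 16 names had 1 peak each. The remaining L1Md names were rare, with 8 peaks for L1Md_F and 7 for L1Md_Gf, an active subfamily. How many bases each subfamily occupies in the genome is not in the deposited tables, so the counts per name are not rates.

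Fewer Foxp4 peaks fell in LINEs than their length in the genome would give. The authors' deposited table, which covers all chromosomes, lists 1984 Foxp4 peaks over 543.6 Mb of LINE sequence, with a log2 ratio of observed to expected of -0.77. In the same authors' deposited table the log2 ratio was -0.26 for long terminal repeat (LTR) retrotransposons and -0.03 for short interspersed elements (SINEs). Computed from that deposited table, Foxp4 peaks numbered 3.65 per Mb of LINE, 5.19 per Mb of LTR and 6.08 per Mb of SINE sequence. Introns without an annotated repeat had 8.56 and intergenic sequence without one 5.22 Foxp4 peaks per Mb. For H3K27ac the authors' deposited table gives a LINE log2 ratio of -2.64, and the density was 1.03 H3K27ac peaks per Mb of LINE.

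LINEs made up a larger share of the Foxp4 list than of the H3K27ac list. By the same rule, 553 of 17450 H3K27ac peaks on chromosomes 1 to 19 lay in LINEs (3.17%, exact Clopper-Pearson 95% interval 2.91 to 3.44%), against 11.6% of the Foxp4 peaks (interval 11.2 to 12.1%). The Foxp4 share was higher by 8.46 percentage points (Fisher's exact test, two-sided, adjusted p = 9.8e-208; all p-values given here come from this test and are adjusted by Benjamini and Hochberg's method). Every test here compares peaks of 1 library with peaks of another or of the same library, so it describes these lists and not the spread between cultures. Intervals cover counting error only, and the depth of the libraries is unknown.

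The kinds of LINE also differed in frequency between the lists. L1Md names held 120 of the 553 H3K27ac LINE peaks (21.7%), and L1M names 140 (25.3%). L2 made up 53 of them (9.58%) and CR1 11 (1.99%), so L1M, L2 and CR1 were more frequent among acetylated LINEs than among LINEs with a Foxp4 peak. The shares of Lx names were close, 25.9% for Foxp4 and 26.6% for H3K27ac. These shares were compared after they were seen and were not tested.

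**Figure D1:**
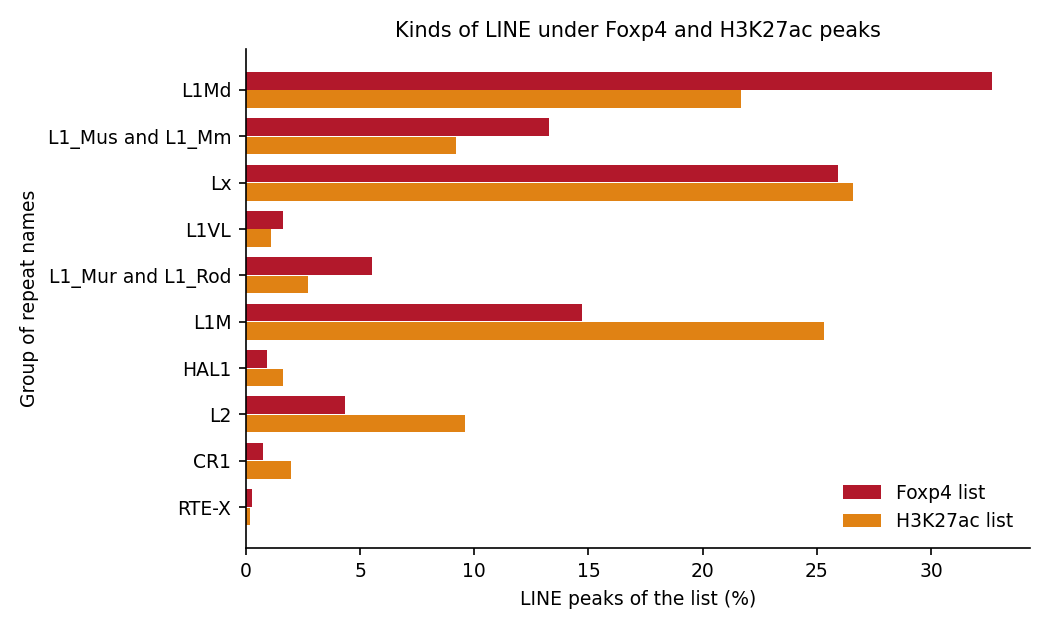
Share of the LINE peaks of each list (x axis, %) that carries each group of repeat names (y axis), for the Foxp4 list (1961 LINE peaks) and the H3K27ac list (553 LINE peaks), 1 library each. L1Md names hold 32.7% of the Foxp4 and 21.7% of the H3K27ac LINE peaks, and L1M names 14.7% and 25.3%.

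Sequence at hand covers only windows around RefSeq gene starts, from 250 bases before to 50 after (GRCm38.p6, the assembly of mm10), and 2 of the 1961 members met such a window. Both starts belong to predicted genes, and the stretches shared by peak and window are shown because they are the only member sequence that can be read here. They are on the strand of the gene and end upstream of its start. The first lies at chr13:37435274-37435371, minus strand, 153 bp or more upstream of the start of Gm4035, in an L1MC4a peak of score 34. The second lies at chr5:64377703-64377921, plus strand, 32 bp or more upstream of the start of Gm43837, in an L2a peak of score 27.

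Gm4035: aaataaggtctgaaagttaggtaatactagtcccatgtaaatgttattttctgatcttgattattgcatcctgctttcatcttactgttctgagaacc

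Gm43837: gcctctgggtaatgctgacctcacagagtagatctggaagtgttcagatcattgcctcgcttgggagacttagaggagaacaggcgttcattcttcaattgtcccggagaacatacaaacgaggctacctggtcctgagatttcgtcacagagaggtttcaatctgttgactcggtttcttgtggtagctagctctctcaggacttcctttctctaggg

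The forkhead cores TGTTTAC and TGTTTGC were searched on both strands, with no overlap between them, and neither stretch held a match, so no letters stand in capitals. Of all 32851 promoter windows, cut to the same 98 bases, 1.28% held the first core and 1.81% the other. Cut to the same 219 bases, the shares were 2.80% and 3.85%. The Gm4035 stretch had 33.7% G and C, and the Gm43837 stretch 48.9%. The centre of each peak, which decides its annotation, lay just outside the window, so the printed bases may or may not belong to the LINE itself. Neither peak overlapped H3K27ac.

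Foxp4 peaks in LINEs lay farther from transcription starts than those of the other classes, although 672 of them were inside introns. Their distance to the nearest transcription start site (TSS) had a median of 65622 bp (quartiles 21799 and 184961 bp), against 41691 bp for Foxp4 peaks in LTRs, 21014 bp for those in SINEs and 31624 bp for intron and intergenic Foxp4 peaks with no annotated repeat. Over 100 kb from a TSS lay 770 members (39.3%, interval 37.1 to 41.5%), where all Foxp4 peaks gave 21.6%. This share exceeded that of peaks with no repeat (2115 of 9420, 22.5%) by 16.8 percentage points (adjusted exact p = 2.5e-50), that of LTR peaks (441 of 1611, 27.4%) by 11.9 points (adjusted exact p = 1.9e-13) and that of SINE peaks (149 of 1193, 12.5%) by 26.8 points (adjusted exact p = 6.5e-62). The annotation gives promoters and exons precedence over repeats, so no member could lie at a promoter of the genes in that annotation, and the closest one was 1086 bp from a TSS of that set. The 2 members that met the RefSeq windows of Gm4035 and Gm43837 lay closer to those starts, which the deposited distances do not use.

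Distance and location followed the kind of LINE. L1Md peaks had a median distance of 106869 bp, Lx peaks 54326 bp, L1M peaks 36742 bp and L2 peaks 23687 bp, while the 15 CR1 peaks had 125554 bp. Of the L1Md peaks 51.8% lay over 100 kb from a TSS, of the L1M peaks 23.5% and of the L2 peaks 12.9%. Intergenic sequence held 76.4% of the L1Md peaks, 52.2% of the L1M peaks and 41.2% of the L2 peaks. Over all members 1289 (65.7%) were intergenic and 672 in introns, and 912 lay upstream and 1049 downstream of the nearest TSS. Among single names with at least 41 members, L1Md_A lay farthest out, with a median of 133064 bp, and Lx9 closest, with 29616 bp. These distances are a description, and the groups were not tested against each other.

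The 5 members nearest a TSS of the deposited annotation scored between 21 and 27. An Lx3B peak of score 27 lay 1086 bp downstream of the start of the predicted gene Gm8369 (chr19:11492829-11493419). An L2 peak of score 27 lay 1152 bp upstream of Ercc3, a DNA repair helicase gene (chr18:32239020-32239339). The Lx8b peak upstream of Cd302, a lectin receptor gene, scored 24 at 1155 bp (chr2:60285481-60285798). At Olfr553, an olfactory receptor gene, an L2c peak of score 21 lay 1169 bp upstream (chr7:102616004-102616308). An Lx7 peak of score 21 lay 1202 bp upstream of Fas, the death receptor gene (chr19:34289311-34289603). None of the 5 overlapped an H3K27ac peak, although one lay 402 bp from the Ercc3 peak, 856 bp from the Fas peak and 1447 bp from the Cd302 peak.

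Peaks in LINEs overlapped acetylated chromatin less often than other Foxp4 peaks. Of the 1961 members, 17 overlapped an H3K27ac peak by 1 bp or more (0.867%, interval 0.506 to 1.38%), where all Foxp4 peaks gave 8.24%. Peaks with no repeat overlapped in 630 of 9420 cases (6.69%), a difference, LINE minus no repeat, of -5.82 percentage points (adjusted exact p = 1.1e-32). LTR peaks overlapped in 36 of 1611 cases (2.23%), a difference of -1.37 points (adjusted exact p = 0.0020), and SINE peaks in 41 of 1193 (3.44%), a difference of -2.57 points (adjusted exact p = 7.3e-07). An H3K27ac peak within 1000 bp was found for 36 members (1.84%), 66 LTR peaks (4.10%), 96 SINE peaks (8.05%) and 1041 peaks with no repeat (11.1%).

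A few score values recur in the Foxp4 list, and most members carried one. The values 21, 27, 34, 41, 49 and 57 each stood on at least 100 Foxp4 peaks, and each was over 3 times as frequent as the whole numbers next to it. They held 1665 members (84.9%), 81.6% of LTR peaks, 74.9% of SINE peaks and 73.5% of peaks with no repeat. Without them, 9 of 296 members overlapped H3K27ac (3.04%), against 15.4% of peaks with no repeat (adjusted exact p = 1.7e-10), 8.36% of SINE peaks (adjusted exact p = 0.017) and 5.05% of LTR peaks (adjusted exact p = 0.45). The difference from LTR peaks in distance also missed the threshold without these scores, with 28.7% of members and 22.9% of LTR peaks over 100 kb from a TSS (adjusted exact p = 0.22).

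**Figure D2:**
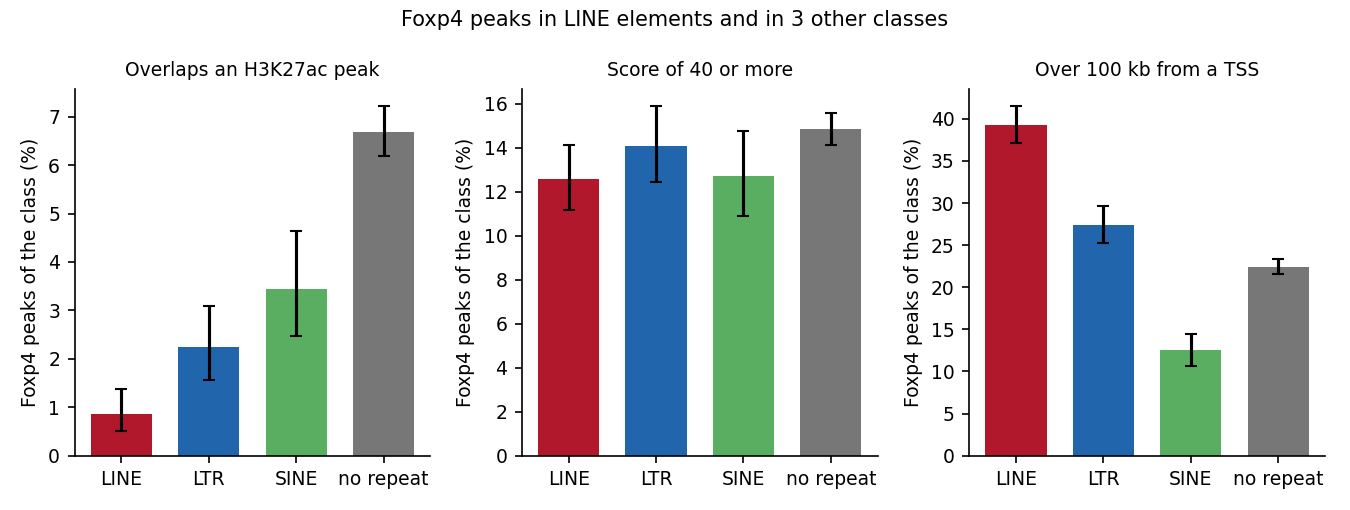
Share of Foxp4 peaks (y axis, %) that overlap an H3K27ac peak, score 40 or more, or lie over 100 kb from a TSS, in LINEs (1961 peaks), LTRs (1611), SINEs (1193) and intron or intergenic sequence with no annotated repeat (9420); bars are shares in 1 library and whiskers exact 95% intervals. LINE peaks have the lowest overlap (0.867%) and the highest share far from a TSS (39.3%), while the shares scoring 40 or more lie between 12.6% and 14.9%.

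In comparison with peaks with no repeat, the low overlap was not limited to peaks far from a TSS. Within 10 kb of a TSS 4 of 241 members overlapped H3K27ac (1.66%), against 5 of 288 LTR peaks (1.74%), 16 of 347 SINE peaks (4.61%) and 307 of 2339 peaks with no repeat (13.1%). Between 10 and 100 kb it was 7 of 950 members (0.737%), 2.83% of LTR peaks, 23 of 697 SINE peaks and 5.24% of peaks with no repeat. From 100 kb to 1 Mb the counts were 5 of 729 members (0.686%) and 63 of 2061 peaks with no repeat (3.06%). In that range 6 of 430 LTR peaks (1.40%) and 2 of 145 SINE peaks (1.38%) overlapped. The interval of the members there (0.223 to 1.59%) overlapped those of LTR (0.514 to 3.01%) and SINE peaks (0.167 to 4.89%). Intronic members overlapped in 7 of 672 cases (1.04%) and intergenic ones in 10 of 1289 (0.776%). Against peaks with no repeat the difference was -6.65 points in introns (adjusted exact p = 1.6e-13) and -4.73 points in intergenic sequence (adjusted exact p = 1.7e-16). Within introns the difference from SINE peaks, -1.55 points, missed the threshold (adjusted exact p = 0.066). These splits were added after the data were seen.

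**Figure D3:**
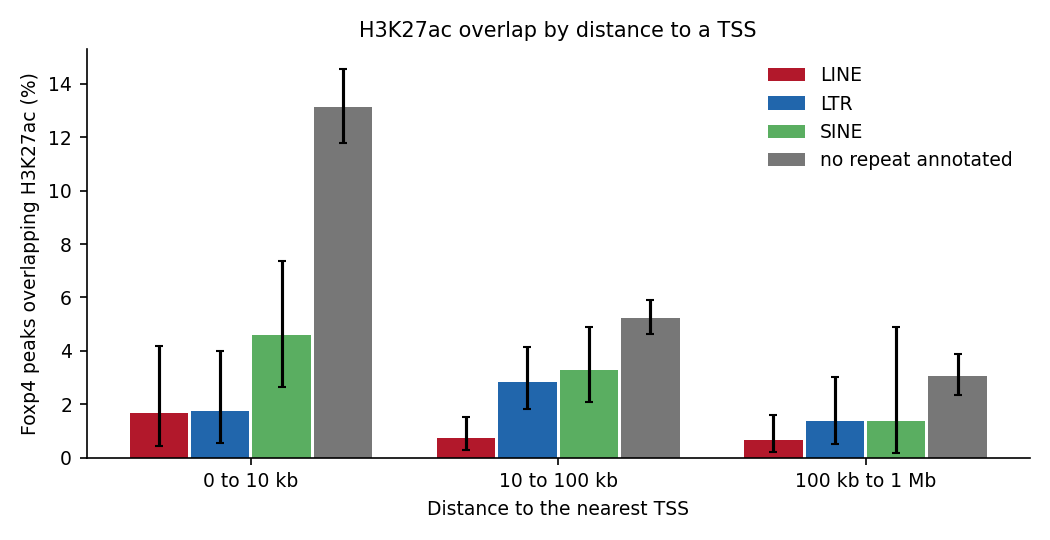
Share of Foxp4 peaks overlapping an H3K27ac peak (y axis, %) by distance to the nearest TSS (x axis), for LINE, LTR and SINE peaks and peaks with no annotated repeat; whiskers are exact 95% intervals for 1 library. LINE peaks stay between 0.686% and 1.66%, while peaks with no repeat go from 13.1% within 10 kb to 3.06% at 100 kb to 1 Mb; peaks over 1 Mb away (41 in LINEs, 1 of them overlapping) are not drawn.

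Among the 17 members in acetylated chromatin, mammal-wide L1M names were frequent. They held 10 of the 17, which is 10 of 289 L1M peaks (3.46%, interval 1.67 to 6.27%), while the other L1 names together had 6 of 1567 (0.383%, interval 0.141 to 0.832%). L1Md peaks had 3 overlaps in 641 (0.468%), Lx peaks 3 in 508 (0.591%) and L2 peaks 1 in 85 (1.18%). The L1_Mus and L1_Mm names had 0 in 260, with an upper bound of 1.41%. At 10 to 100 kb from a TSS, L1M had 7 of 171 and the other L1 names 0 of 726, within 10 kb 1 of 50 and 2 of 161, and from 100 kb to 1 Mb 2 of 67 and 3 of 640. The L1M split was noticed in these counts and has no test. In the planned comparison, L2 and CR1 peaks overlapped in 1 of 100 cases and L1 peaks in 16 of 1856 (0.862%), a difference of 0.14 points (95% interval of the difference by normal approximation -1.86 to 2.13, adjusted exact p = 0.65). With an H3K27ac peak allowed within 1000 bp the same difference was 3.38 points, 5 of 100 against 30 of 1856 (adjusted exact p = 0.040).

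Members in acetylated chromatin scored higher than the rest, with a median of 36 (quartiles 27 and 43) against 27 (quartiles 26 and 34), given as a description. The highest was an L1Md_A peak in intron 1 of Lsamp, a neuronal adhesion gene (chr16:40614260-40614691), with a Foxp4 score of 85, which lay wholly inside an H3K27ac peak of score 95. That H3K27ac peak was only 472 bp wide and was itself annotated as L1Md_A. An L1MC3 peak of score 71 in intron 3 of the forkhead gene Foxn3 (chr12:99336749-99337355) shared 480 bp with an H3K27ac peak of score 39. Pkmyt1, encoding an inhibitory kinase of the mitotic kinase Cdk1, had an L1M4b peak of score 49 in its intron 1 (chr17:23731082-23731518) that shared 141 bp with H3K27ac of score 51. The partner there was centred in a SINE.

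Overlaps with lower scores lay both between genes and in introns. An L1MB3 peak of score 48 was 11726 bp upstream of Tbc1d7, a subunit gene of the TSC complex (chr13:43183051-43183404), and shared 322 bp with an H3K27ac peak of score 37. The L1M2 peak of score 43 upstream of Sec61g, a gene of the protein translocation channel (chr11:16529241-16529550), shared 162 bp. An L1MD3 peak of score 41 near Dock1, which encodes an activator of the GTPase Rac (chr7:134528084-134528462), met its H3K27ac peak by only 9 bp. The L1MB2 peak of score 40 near Ankef1 (chr2:136505461-136505803) lay wholly inside an H3K27ac peak of 1827 bp. In intron 2 of Nfic, a nuclear factor I gene, an L2a peak of score 37 (chr10:81413451-81414089) shared 589 bp with H3K27ac. An Lx peak of score 36 near AW112010 (chr19:11053456-11053838) and an L1Md_Gf peak of score 34 (chr12:51168202-51168621) shared 181 and 330 bp. At the same score of 34, an L1MB1 peak in intron 2 of Btc, a growth factor gene (chr5:91375071-91375438), shared 363 bp, and an L1M2 peak near Irx6, a homeobox gene (chr8:92706934-92707298), shared 174 bp.

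The other 5 overlapping members scored 21 to 27. In 9 of the 17 cases the H3K27ac peak was itself centred in a LINE, in 7 in sequence with no annotated repeat and in 1 in a SINE. The shared stretch was between 9 and 589 bp long. No gene of the thermogenic, adipogenic or lipid droplet lists described further on was among the genes of these 17 sites.

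In score the members had the median of the whole Foxp4 list. The authors' score, a whole number of at least 20 that ranks peaks within a list, had a median of 27 in LINEs (quartiles 26 and 34), the same median as in LTRs, SINEs and peaks with no repeat. Of the members 638 (32.5%) scored exactly 27, 473 (24.1%) exactly 34 and 342 (17.4%) exactly 21. A score of 40 or more was reached by 247 members (12.6%, interval 11.2 to 14.1%), where all Foxp4 peaks gave 15.4%. The difference from peaks with no repeat (14.9%) was -2.26 points (adjusted exact p = 0.015), but with the threshold at 34 the difference was 1.03 points in the other direction (adjusted exact p = 0.48). It missed the threshold without the recurrent scores as well (adjusted exact p = 0.63).

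Scores of members and of other retrotransposon peaks were not told apart at 40. LTR peaks reached 40 in 14.1% of cases, a difference of -1.50 points (95% interval -3.74 to 0.75, adjusted exact p = 0.24). SINE peaks reached it in 12.7%, a difference of -0.15 points (95% interval -2.54 to 2.25, adjusted exact p = 0.91). With the threshold at 34 more members than SINE peaks passed, 38.1% against 33.5% (adjusted exact p = 0.014). Widths were alike, with a median of 346 bp in LINEs, 344 bp in LTRs, 352 bp in SINEs and 353 bp with no repeat.

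**Figure D4:**
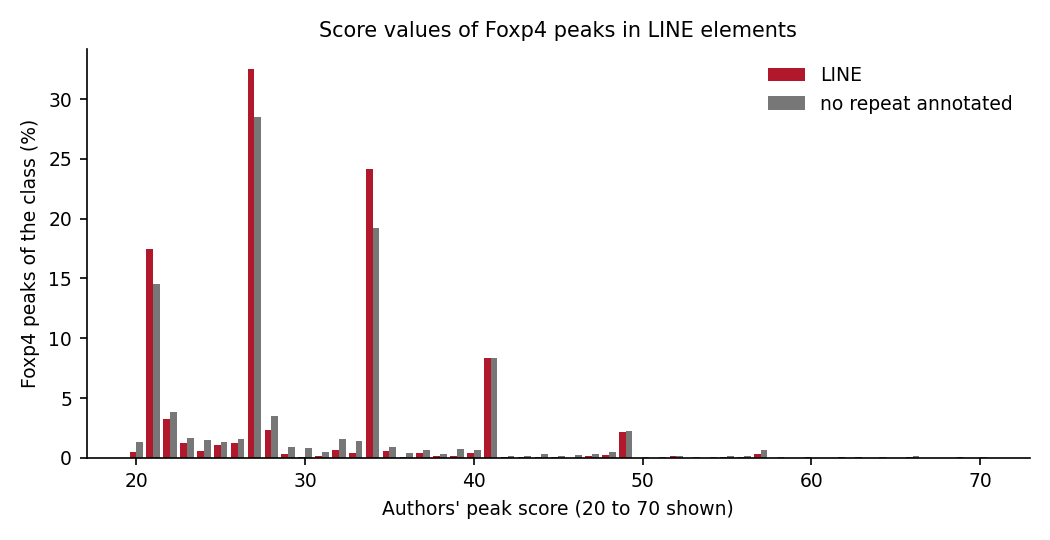
Share of Foxp4 peaks (y axis, %) at each whole score from 20 to 70 (x axis) for the 1961 LINE peaks and the 9420 intron or intergenic peaks with no annotated repeat. In both classes peaks pile up at 21, 27 and 34, and 32.5% of LINE peaks stand at 27.

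L1Md peaks and other L1 peaks were compared in score. L1Md peaks reached 40 in 92 of 641 cases (14.4%), and other L1 peaks in 144 of 1215 (11.9%). The difference was 2.50 points (95% interval -0.77 to 5.77, adjusted exact p = 0.17). At a threshold of 50 it was 11 of 641 (1.72%) against 7 of 1215 (0.576%), and this passed (adjusted exact p = 0.031). At a threshold of 34 the difference was 2.49 points and did not pass (adjusted exact p = 0.42). Without the recurrent scores it turned to -1.66 points (adjusted exact p = 0.84). L1Md_T reached 40 in 16.9% of its peaks, L1Md_A in 15.1%, L1Md_F2 in 12.3% and L1Md_F3 in 8.51%. Of the 12 most frequent names Lx7 had the lowest share, with 2 of 47 peaks. All 12 names had a median score of 27.

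L1Md names were frequent at the top of the members by score. Of the 10 highest-scoring members, all at 60 or more, 6 carried an L1Md name and 4 of these were L1Md_A. Over all members, L1Md names held 32.7% and L1Md_A 7.09%. The count rests on 10 peaks and was not tested. A single member exceeded 100, an intergenic L1Md_A peak with a score of 205, and no H3K27ac peak overlapped it. After the Lsamp peak came an L1Md_F3 peak of score 76 in an intron of the predicted gene Gm21119 (chr8:20624215-20624992), the Foxn3 peak, and an L1Md_A peak of score 69 at 21148 bp upstream of the olfactory receptor gene Olfr596 (chr7:103288427-103288723).

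The remaining peaks of these 10 scored between 60 and 66. An L1Md_T peak of score 66 lay near Prl2c1, a prolactin family gene (chr13:27883920-27884250). Limk2, encoding a kinase that regulates actin through cofilin, had an L2 peak of score 63 in intron 1 (chr11:3396267-3396668). The zinc finger gene Zfp955b had an Lx5c peak of score 63 in intron 1 (chr17:33298395-33298679). Lingo2, a gene of a neuronal membrane protein, had an L1Md_A peak of score 62 in intron 1 (chr4:36611492-36611863), and near Speer4c an Lx5c peak scored 60 (chr5:15704362-15704668). The widest members scored lower: an L1M3 peak of 1312 bp in intron 2 of Chmp3, a gene of membrane scission (chr6:71557688-71558999), scored 34. An L1Md_T peak of 923 bp (chr8:49982931-49983853) scored 49 and an L1_Mus1 peak of 913 bp (chr17:4509192-4510104) scored 34.

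Through the nearest TSS the members were assigned to 1595 genes, of which 1326 had 1 and 69 had 3 or more. Acvr2a, which encodes an activin receptor, had 7 of its 13 Foxp4 peaks in LINEs. Between chr2:47408588 and chr2:48855251 these carried Lx, Lx7, Lx8b, L1Md_F2, L1Md_F3 and L1_Mus2 names, scored 27 to 34, and lay 40904 to 1405362 bp from the TSS, with 1 in intron 1 of the gene. Cdh20, a cadherin gene, had 6 of 14, with scores of 23 to 41 and 2 in its introns. Nova1, encoding a neuronal splicing factor, also had 6, of 11, all intergenic and 163897 to 1234168 bp away. Grik2, a kainate receptor gene, and Hnf4g, a nuclear receptor gene, had 5 of 8 each, and Tns3, a tensin gene of focal adhesions, had 5 of 12. None of these 34 peaks overlapped H3K27ac, although the peak in intron 1 of Acvr2a lay 47 bp from an H3K27ac peak. Assignment to the nearest TSS over such distances names a neighbour, not a target.

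Intronic members lay in long genes. Of 672, 670 were matched to a RefSeq gene, 589 genes in all. Counted once per peak, the length of the gene had a median of 134.3 kb (quartiles 57.3 and 332.1 kb). Counted the same way, it was 101.7 kb for intron peaks with no repeat, 127.4 kb for LTR and 73.8 kb for SINE peaks. A gene with several peaks thus counts several times. Intron 1 held 27.5% of the intronic members, 30.6% of the LTR, 34.7% of the SINE and 35.0% of the intron peaks with no repeat. Macrod2, a mono-ADP-ribosylhydrolase gene of 1998 kb, held 4 members among 19 intronic Foxp4 peaks, in introns 3, 5, 6 and 8 and with scores of 27 to 35. Cntnap2, a neurexin family gene of 2241 kb, held 3 of 12, and Kdm4c, a histone demethylase gene of 163.4 kb, had all 3 of its intronic Foxp4 peaks in LINEs. The predicted gene Gm21119 held 5, but its transcript was annotated at several copies between chr8:19909759 and chr8:20624992, a duplicated region where peaks of near-identical copies may share reads.

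Gene lists of neuronal adhesion, fat cell and forkhead genes were looked up, and they carry no test. The share of all genes that have a Foxp4 peak is not given here. The numbers of listed genes with a peak therefore show no preference for a list. One list held 24 long genes of LINE-rich regions, mostly of neuronal and synaptic adhesion. Of these, 22 had a Foxp4 peak in an intron or as nearest TSS and 15 had one in a LINE. In LINEs lay 28 of their 122 Foxp4 peaks (23.0%), beside 11.6% of the whole list. Because the genes were listed as lying in LINE-rich regions, a higher LINE share was built into the choice and is no finding about neuronal genes. The 24 include Macrod2 and Fhit, a diadenosine triphosphate hydrolase gene, which are no adhesion genes and had 4 and 2 of the 28. Opcml, a cell adhesion gene, had 3 such peaks of scores 21, 27 and 34 in intron 1, and Ptprd, a receptor phosphatase gene, had 2 of scores 34 and 27. None of these 28 peaks overlapped H3K27ac.

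Of 23 adipogenic factors 18 had a Foxp4 peak and 3 had one in a LINE, with 3 of 76 peaks (3.95%), beside 11.6% of the whole list. An L1_Mur3 peak of score 34 lay 37333 bp from Cebpd, an early adipogenic factor, within an intron of the neighbouring gene Spidr (chr16:15924325-15924914). In intron 7 of Ebf1, an adipogenic factor gene, an L1MD2 peak scored 27 (chr11:44877696-44878206). Klf9, a Krüppel-like factor gene, had an Lx3A peak of score 41 at -171770 bp from its TSS, inside Trpm3 (chr19:22969215-22969698). Of 24 thermogenic and beige genes 12 had a Foxp4 peak and only Pdk4, an inhibitory kinase gene of pyruvate oxidation, had one in a LINE, an L1MA4A peak of score 27 at -72959 bp from its TSS (chr6:5568990-5569484). This was 1 of 30 Foxp4 peaks of these genes (3.33%), again beside 11.6% of the whole list.

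Lipid droplet and lipolysis genes had 2 of 18 Foxp4 peaks in LINEs (11.1%). Cd36, a fatty acid transporter gene, had an L1Md_F2 peak of score 27 in intron 12 of the annotated transcript (chr5:17789236-17789706). Lpl, encoding lipoprotein lipase, had an Lx peak of score 26 at 94017 bp from its TSS (chr8:68974422-68974722). Of 16 forkhead genes 10 had a Foxp4 peak and 4 had one in a LINE, with 4 of 40 peaks (10%), close to the share of the whole list. Besides Foxn3 these were Foxp1 with an L2b peak of score 34 in intron 2 (chr6:99185656-99186026), Foxp2 with an L1Md_A peak of score 34 in intron 1 (chr6:14934741-14935031), and Foxc1 with an L1_Mus3 peak of score 27 at -14242 bp from its TSS (chr13:31792262-31792546). The Foxn3 peak was the only one of the 10 members at genes of these adipogenic, thermogenic, lipid and forkhead lists that overlapped H3K27ac.

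Chemosensory receptor genes, which stand in large clusters, were the nearest gene of a small part of the members. Olfactory receptor genes were nearest for 28 members (1.43%), 12 LTR peaks (0.745%), 1 SINE peak (0.0838%) and 32 peaks with no repeat (0.340%). Vomeronasal receptor genes, found in the pheromone-sensing organ, were nearest for 11 members (0.561%), 8 LTR peaks (0.497%), 2 SINE peaks (0.168%) and 18 peaks with no repeat (0.191%). Genes with a Zfp name, zinc finger genes, were nearest for 35 members (1.78%), 30 LTR peaks (1.86%), 12 SINE peaks (1.01%) and 1.28% of peaks with no repeat. These shares were not tested.

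The LINE share of Foxp4 peaks varied between chromosomes. It had a median of 11.9% and went from 7.64% on chromosome 11 (83 of 1087, interval 6.13 to 9.38%) to 15.7% on chromosome 3 (145 of 922, interval 13.4 to 18.2%). Chromosomes 14 and 10 followed chromosome 3, with 14.3% and 14.1%, and chromosome 9 was next to chromosome 11 with 8.89%. All neighbours in this order had overlapping intervals, whereas those of chromosomes 3 and 11 did not overlap. The LINE length of each chromosome is not in the deposited tables, so these shares are not set against the amount of LINE sequence.

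**Figure D5:**
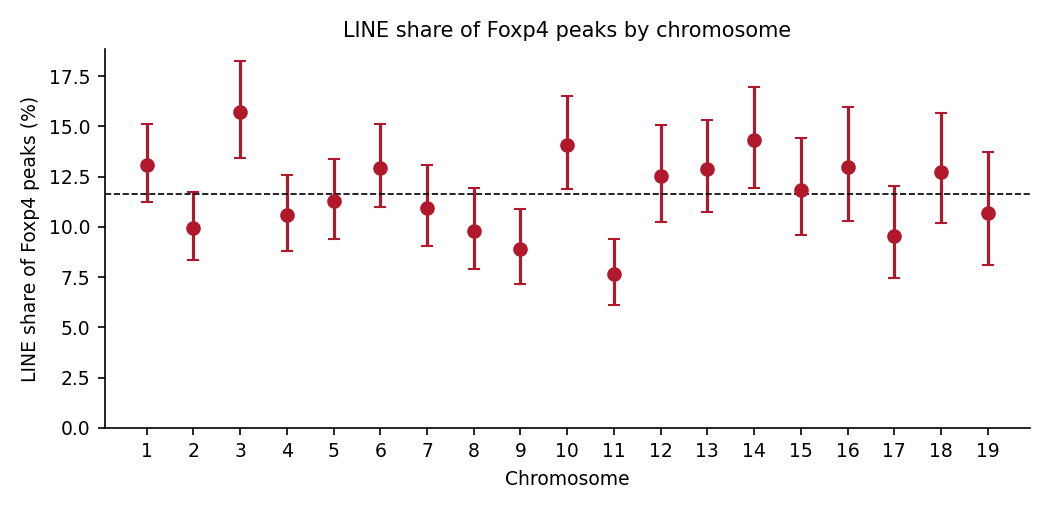
LINE share of Foxp4 peaks (y axis, %) on each of chromosomes 1 to 19 (x axis); points are shares in 1 library, whiskers exact 95% intervals and the dashed line the share over all 19 chromosomes, 11.6%. Chromosome 3 is highest at 15.7% and chromosome 11 lowest at 7.64%.

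Members were mostly scattered singly. The median distance from a member to the next was 373304 bp, and 78 members (3.98%) had another within 10 kb. These formed 39 pairs with a median gap of 2221 bp. In 15 pairs both peaks carried the same repeat name, so they may lie in a single element or in neighbouring copies. The Lsamp peak of score 85 was part of such a pair, with an L1Md_A peak of score 21 at a gap of 1202 bp. The Lingo2 peak of score 62 had an L1Md_A peak of score 34 at 4529 bp, and the Speer4c peak of score 60 an L1_Mus4 peak of score 34 at 564 bp. With Hnmt, a histamine methyltransferase gene, as nearest gene, a pair of L1_Mus1 peaks with scores of 41 and 34 was 758 bp apart (chr2:24058219-24058572 and chr2:24059331-24060106). A pair of L1Md_T peaks near Flrt2 was 636 bp apart, both with a score of 27. These pairs were chosen after their values were seen.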

How the data were processed

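Peak lists of 1 Foxp4 and 1 H3K27ac ChIP library were used, and the input library was not. The submitters' processing notes name Bowtie2, Picard, SAMtools, MACS2, deepTools 3.3.0 and the build mm10, with no settings. Per the file headers, the authors annotated narrowPeak lists with HOMER, which reads the peak centre. The deposited score is a whole number of unstated scale, so it was compared within a list only, and depth is unknown.

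Overlap meant at least 1 shared bp. Shares were compared by Fisher's exact tests over peaks, two-sided, with Benjamini-Hochberg adjustment over 12 comparisons and a threshold of 0.05. Intervals of shares are exact (Clopper-Pearson, 95%), and those of differences use the normal approximation. Scripts were tested on simulated data. Transcripts and promoter sequences came from RefSeq GRCm38.p6.

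Named by rule were the 10 highest-scoring peaks, the 10 highest-scoring with H3K27ac (12 with ties), the 5 nearest a TSS, the 3 widest, the 12 most frequent repeat names, any L1Md name, the 5 genes with most LINE peaks (6 with ties, predicted genes passed over) and list genes with a LINE peak. Any other name was picked with its values in view. The position and nearest gene of 1 of these peaks are not reported here. The members and lists were chosen with earlier results of these data known. Alternatives changed the overlap, score and distance thresholds, the peaks used and the chromosomes. Python 3.11.15 was used with matplotlib 3.10.9, scipy 1.17.1, numpy 2.4.6 and pandas 2.3.3.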

Additional observations from a re-analysis of the deposited data

Results flagged for a closer look

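Chromosomes X and Y, which the choice of members leaves out, held 23 further Foxp4 peaks in LINEs. No comparison of the report uses them for its main value. Chromosome X had 21 among 68 Foxp4 peaks (30.9%, exact interval 20.2 to 43.3%), with scores of 21 to 49 and a median of 28, and chromosome Y had 2 among 13. None of the 23 overlapped an H3K27ac peak. The share on chromosome X lies above those of chromosomes 1 to 19, whose highest was 15.7%, and this difference was not tested. The LINE length of chromosome X is not in the deposited tables either. Its share is therefore not set against its amount of LINE sequence.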

How the results depend on the processing

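The 12 comparisons were recomputed in 60 alternatives, of which 48 kept both direction and side of the threshold; 9 of the 60 (intron, intergenic or 10 to 100 kb peaks only, for H3K27ac overlap) were chosen after seeing the data. Without the recurrent scores, which leaves 296 members, the difference from LTR peaks was -2.01 points in H3K27ac overlap and 5.82 points in distance, and in scores of 40 or more it was -1.68 points from peaks with no repeat; all 3 lost the threshold. Under the same setting the score difference turned to 1.05 points against LTR and 3.46 against SINE peaks, and that of L1Md from other L1 peaks to -1.66. With a score threshold of 34 the LINE differences turned to 1.03 points against no repeat, 1.27 against LTR and 4.61 against SINE peaks. With a threshold of 50 the L1Md difference, 1.14 points, passed, and with H3K27ac within 1000 bp that of L2 and CR1 from L1, 3.38 points, passed. In introns only, the overlap difference from SINE peaks, -1.55 points, missed the threshold. The causes of these changes were not tested, and some settings held fewer peaks. The difference between the Foxp4 and H3K27ac lists ranged from 8.52 to 8.86 points. No paired analysis was possible because each group has 1 library, and none could be left out. Depth is unknown, so an absent H3K27ac peak means only that none was called.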
